A study of Mus musculus with 6 samples.

Results

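The enzymes that break down the branched-chain amino acids leucine, isoleucine and valine were followed in cochlear tissue of *Cmah*-null and WT mice. Of the 10 genes chosen by name (*Bcat2*, *Bckdha*, *Bckdhb*, *Dbt*, *Ivd*, *Mccc1*, *Mccc2*, *Pcca*, *Pccb* and *Mut*), 9 had at least 1 probe that carried their symbol, and these 9 held 13 of the 25697 probes of the array. *Mccc2* was matched to no probe and is not analysed here. Cochleae of 3 WT and 3 *Cmah*-null C57BL/6 mice (C57BL/6J in the study's methods), aged 12 months, gave the RNA, which was hybridized to Illumina MouseRef-8 v2 BeadChips, 1 array per sample. The *Cmah*-null mice carry the Cmah tm1Ykoz knockout allele, which removes CMP-N-acetylneuraminic acid hydroxylase from the whole animal, and no group received a treatment. The question put to the arrays was which transcripts differ between the genotypes in a cochlea that loses hearing with age.

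Breakdown begins in the mitochondrion, where the aminotransferase *Bcat2* moves the amino group of each amino acid to 2-oxoglutarate. The branched-chain 2-oxoacid dehydrogenase complex then removes carbon dioxide from the oxoacids, and this step is irreversible. Its E1 component is built of *Bckdha* and *Bckdhb*, its E2 core is *Dbt*, and its E3 component is *Dld*, which other dehydrogenase complexes share. The leucine branch passes through isovaleryl-CoA dehydrogenase (*Ivd*) and methylcrotonyl-CoA carboxylase (*Mccc1* and *Mccc2*) to acetyl-CoA and a ketone body. Isoleucine and valine end in propionyl-CoA, which propionyl-CoA carboxylase (*Pcca* and *Pccb*) and methylmalonyl-CoA mutase (*Mut*) carry into the citrate cycle as succinyl-CoA. Muscle, brown fat, liver and kidney are tissues known for these enzymes.

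Each probe is 50 bases long, and 30 of them are printed here for the genes with several probes, since the results differ between probes of the same gene. For *Pcca* the deposited annotation places one probe across an exon junction, and the capitals mark its last 8 bases, which lie past the junction. All other bases are in lower case and are the first 30 of the probe.
*Pcca* ILMN_2674924 (band 14qE5): ctgtcgtggcatctaacaatggGCCGGCAT
*Pcca* ILMN_2921698 (band 14qE5): tgcgcaagcatttacaggagcactcctgtg
*Pccb* ILMN_2622761 (band 9qE4): cttggacactgattgatttgcataaagagt
*Pccb* ILMN_2875938 (band 9qE4): ggctgggctctgtgctgaagaggctaagag
*Dbt* ILMN_2820948 (band 3qG1): cctcccagccctcagtaggagcacgtatta
*Dbt* ILMN_1242012 (band 3qG1): ccagccgttacgatggcgtcattaagaggc
*Dbt* ILMN_2662920 (band 3qG1): aaaaggtctactttaatcagatagcttcag
Probes of the same gene differ in these stretches. Each is annotated to that gene and was read on the same RNA, though not all were detected on every array.

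Signals are given as the quantile-normalized log2 values that were deposited, and a difference is always *Cmah*-null minus WT on that log2 scale. On each array 13873 to 15223 probes were detected at a detection p under 0.05. The probe for *Cmah* read 7.27, 7.28 and 7.87 in WT against 7.95, 7.98 and 7.27 in *Cmah*-null cochleae, highest in *Cmah*-null replicates 1 and 2. It was detected on 1 WT and 2 *Cmah*-null arrays, too close to background to check the genotype, and whether it lies in the deleted part is not known here. *Cmah*-null replicates 1 and 2 were the closest pair, with an SD of their log2 difference of 0.126 against 0.307 or more for other pairs. The labels give a replicate number only and name no mouse, so p-values measure the spread between these samples, which may be technical. The arrays of WT replicate 1 and *Cmah*-null replicates 1 and 2 had a median of 32 to 34 beads behind each probe, against 38 or 39 for the remaining 3. This divides the arrays into a set with fewer and a set with more beads, each of which holds both genotypes.

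By single probes, propionyl-CoA carboxylase had the 3 largest differences among the enzymes, 2 in *Pcca* and 1 in *Pccb*, while the brightest *Pccb* probe differed by less than those of *Dbt*, *Mccc1*, *Bcat2* and *Bckdha*. Both of its subunits were lower in *Cmah*-null cochleae by 1 of their 2 probes at 1.5-fold and an unadjusted p under 0.05, the rule used for calls here, and no array of one genotype overlapped the other on any of the 4 probes. *Pcca*, the biotin-carrying alpha subunit, had log2 signals of 10.35, 9.46 and 9.02 in WT against 8.45, 8.82 and 7.99 in *Cmah*-null cochleae by its junction probe (ILMN_2674924). The WT mean of 9.61 ± 0.68 (SD, n = 3) stood against 8.42 ± 0.41 (SD, n = 3), a difference of -1.19 (SE 0.39) or 2.29-fold, with an adjusted p of 0.529 in limma. The nearest arrays of the 2 groups, WT replicate 3 and *Cmah*-null replicate 2, were 0.21 apart. This probe was not past the rule on leaving out *Cmah*-null replicate 1 (-1.21) or replicate 3 of that group (-0.98).

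The brighter *Pcca* probe (ILMN_2921698) read 11.06, 10.34 and 10.18 in WT against 9.84, 10.16 and 8.57 in *Cmah*-null cochleae. Its groups were only 0.02 apart at their nearest arrays, since *Cmah*-null replicate 2 lay just under WT replicate 3. The difference of -1.0 (SE 0.46) had an unadjusted p of 0.0754 and an adjusted p of 0.624 in limma, and was not past the rule. *Cmah*-null replicate 3 was the lowest array on both probes. Without it the difference of the brighter probe was -0.53, and without *Cmah*-null replicate 2 it was -1.32 and past the rule.

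*Pccb*, the beta subunit that carries the carboxyl transfer, read 10.12, 10.61 and 10.75 in WT against 9.24, 9.15 and 10.05 in *Cmah*-null cochleae by probe ILMN_2622761. The means were 10.50 ± 0.33 (SD, n = 3) and 9.48 ± 0.50 (SD, n = 3), a difference of -1.01 (SE 0.29) or 2.02-fold, with an adjusted p of 0.483 in limma. *Cmah*-null replicate 3 lay 0.07 below WT replicate 1, and the other 2 *Cmah*-null arrays lay well under every WT array. This was the one probe of the enzymes that passed the rule in all 15 alternatives that were fitted.

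By its brighter probe (ILMN_2875938), *Pccb* read 11.26, 11.09 and 11.11 in WT against 10.70, 10.65 and 10.94 in *Cmah*-null cochleae. The difference of -0.39 (SE 0.11) or 1.31-fold was less than that of the other probe, and had an unadjusted p of 0.0114 and an adjusted p of 0.47 in limma. The WT arrays lay within 0.17 of each other here, and all *Cmah*-null arrays were below them. The brighter probe of *Pccb* changed sign to 0.09 under median scaling, which brings the arrays to 1 common median and leaves out the quantile step. This scaling moved the median of the probes detected on all 6 arrays to 0.30 from 0.026, and the probe stayed below that shift.

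*Mut*, the mutase that follows the carboxylase, was detected on 0 of the 6 arrays. Its log2 signal was 7.06 to 7.08 in WT against 7.07 to 7.15 in *Cmah*-null cochleae, not above background, and no fold is given. *Mcee*, the epimerase between the carboxylase and the mutase, was detected on all arrays and read 12.62, 12.18 and 12.06 in WT against 11.99, 11.94 and 10.75 in *Cmah*-null cochleae. Its groups did not overlap, and the difference of -0.72 (SE 0.37, adjusted p 0.644 in limma) was not past the rule.

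**Figure D1:**
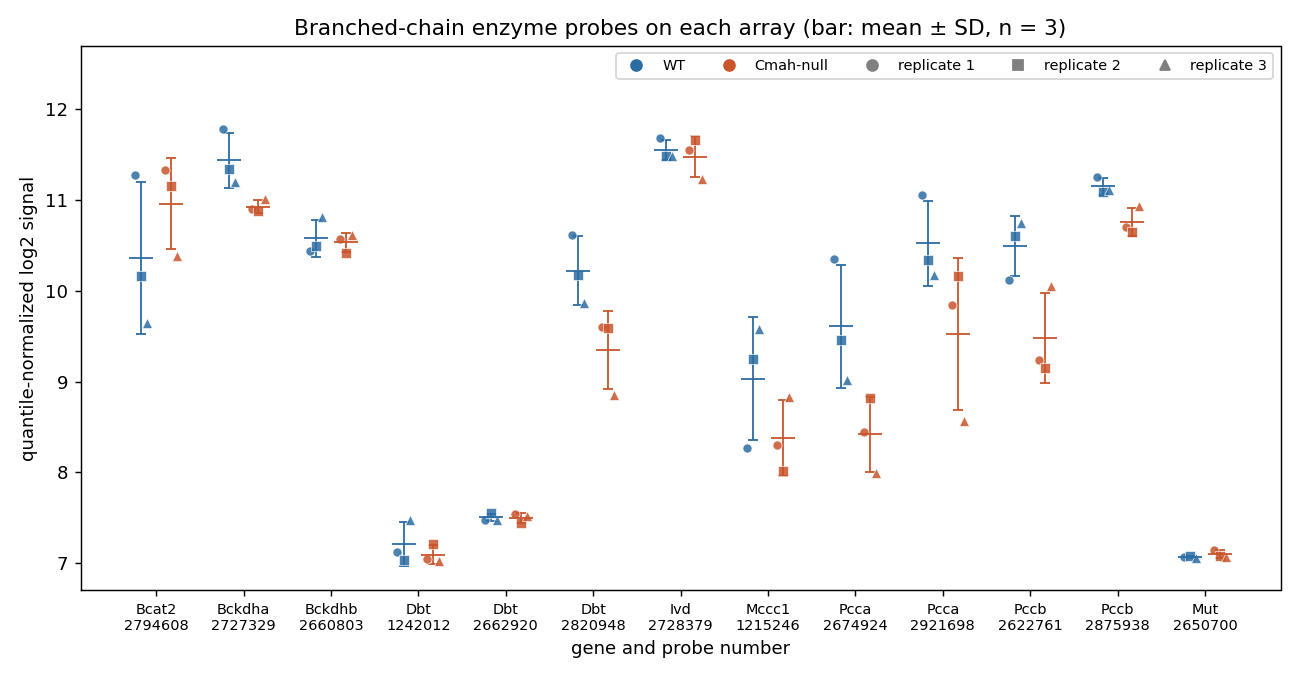
Quantile-normalized log2 signal of the 13 probes for branched-chain enzymes, with gene and probe number on the horizontal axis, 1 point per array (blue WT, orange *Cmah*-null, marker shape by replicate) and bars at the mean ± SD of 3 arrays. The 2 genotypes do not overlap for *Bckdha*, the brightest *Dbt* probe and all probes of *Pcca* and *Pccb*, while 2 *Dbt* probes and *Mut* lie near background.

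The promoters of both carboxylase subunits are shown because the pair builds 1 enzyme and each was lower. By their brightest probes the subunits had r = 0.42 over the 6 arrays. *Cmah*-null replicate 3 was the lowest array of its group for *Pcca* and the highest of its group for *Pccb*, on both probes of each. RefSeq windows on GRCm38.p6, the 250 bases before the annotated start, were matched by gene ID for 7 of the 9 measured genes, and not for *Dbt* and *Mut*. Capitals mark matches, on either strand, to the motifs that were searched: the NRF1 motif (GCGCANGCG, N any base), the ERR half-site (AAGGTCA), the GC box (GGGCGG) and the CCAAT box (CCAAT).
*Pcca*, chr14:122534078-122534327, plus strand: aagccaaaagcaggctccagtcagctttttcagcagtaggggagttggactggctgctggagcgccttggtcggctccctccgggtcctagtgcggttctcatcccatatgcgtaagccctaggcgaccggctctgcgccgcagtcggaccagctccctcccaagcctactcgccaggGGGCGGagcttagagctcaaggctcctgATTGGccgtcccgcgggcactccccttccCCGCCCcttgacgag
*Pccb*, chr9:101034885-101035134, minus strand: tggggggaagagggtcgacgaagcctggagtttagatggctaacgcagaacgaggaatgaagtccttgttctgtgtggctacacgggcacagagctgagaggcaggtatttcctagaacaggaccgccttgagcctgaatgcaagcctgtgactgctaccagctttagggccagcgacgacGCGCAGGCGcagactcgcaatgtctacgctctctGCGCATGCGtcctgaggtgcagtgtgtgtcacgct
This *Pcca* window, the further downstream of 2 listed for the gene, held 2 GC boxes and 1 CCAAT box, and the *Pccb* window held 2 NRF1 motifs, so these windows shared none of the 4 motifs. Of all 32851 windows, 32.7% held a GC box, 33.8% a CCAAT box, 5.16% an NRF1 motif and 4.08% an ERR half-site. No window of the 7 genes held the ERR half-site.

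In the branched-chain 2-oxoacid dehydrogenase complex the E2 core was lower, the E1 alpha subunit was lower by less than 1.5-fold, and the E1 beta subunit differed by less than its standard error. *Dbt*, which carries the lipoyl arm of the core, read 10.62, 10.18 and 9.87 in WT against 9.60, 9.59 and 8.85 in *Cmah*-null cochleae by its brightest probe (ILMN_2820948). The means were 10.23 ± 0.38 (SD, n = 3) and 9.35 ± 0.43 (SD, n = 3), a difference of -0.88 (SE 0.28) or 1.84-fold, with an adjusted p of 0.529 in limma. All *Cmah*-null arrays lay at least 0.27 below the lowest WT array. The other *Dbt* probes do not bear on this difference, because they read 7.02 to 7.55 on all arrays and were detected on 1 (ILMN_1242012) and 4 (ILMN_2662920) of the 6 arrays. With the mean of its 3 probes in place of the brightest, the difference of *Dbt* was -0.33, and it was not past the rule either without WT replicate 1 (-0.68) or without WT replicate 2 (-0.90).

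*Bckdha*, the E1 alpha subunit whose phosphorylation shuts the complex down, read 11.78, 11.34 and 11.20 in WT against 10.90, 10.88 and 11.01 in *Cmah*-null cochleae (ILMN_2727329, band 7qA3). The groups did not overlap, and the *Cmah*-null arrays were tightly grouped at 10.93 ± 0.07 (SD, n = 3) against 11.44 ± 0.30 (SD, n = 3) in WT. The difference of -0.51 (SE 0.16) had an unadjusted p of 0.0208 and an adjusted p of 0.529 in limma, and fell short of 1.5-fold. It was -0.63 and past the rule without WT replicate 3, and -0.03 with median scaling.

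*Bckdhb*, the E1 beta subunit, read 10.44, 10.49 and 10.81 in WT against 10.57, 10.42 and 10.62 in *Cmah*-null cochleae (ILMN_2660803, band 9qE2). The genotypes overlapped, and the difference was -0.05 (SE 0.13, adjusted p 0.933 in limma), with its sign turned in some alternatives. The 2 subunits of E1 thus stood at -0.51 and -0.05, and the difference between these differences was not tested.

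*Dld*, the shared E3 component, read 9.28, 10.12 and 9.85 in WT against 8.81, 8.58 and 8.74 in *Cmah*-null cochleae. It was lower by the rule, with a difference of -1.04 (SE 0.22) or 2.06-fold, an unadjusted p of 0.00374 and an adjusted p of 0.397 in limma. The regulators of the complex were not past the rule. *Bckdk*, the kinase that switches E1 off, had a difference of -0.17 (SE 0.11), and *Klf15*, a transcription factor for amino acid breakdown in muscle, one of 0.18 (SE 0.24). *Ppm1k*, the phosphatase that switches E1 on, read 10.67 to 10.70 in WT against 10.93, 10.78 and 9.64 in *Cmah*-null cochleae, so that its difference of -0.24 (SE 0.34) came from *Cmah*-null replicate 3.

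The genotypes overlapped for *Bcat2*, at the first step, and for *Mccc1* and *Ivd* of the leucine branch. *Bcat2* read 11.28, 10.16 and 9.65 in WT against 11.33, 11.16 and 10.39 in *Cmah*-null cochleae (ILMN_2794608, band 7qB4). WT replicate 1 was as high as the *Cmah*-null arrays, and the difference of 0.59 (SE 0.47, adjusted p 0.75 in limma) was within the spread of the arrays. *Mccc1*, the biotin-carrying subunit of methylcrotonyl-CoA carboxylase, read 8.27, 9.25 and 9.58 in WT against 8.30, 8.01 and 8.83 in *Cmah*-null cochleae (ILMN_1215246, band 3qB). Here WT replicate 1 was as low as the *Cmah*-null arrays, and the difference was -0.65 (SE 0.39, adjusted p 0.686 in limma). Without WT replicate 1 both genes were past the rule, *Bcat2* at 1.05 and *Mccc1* at -1.04.

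*Ivd*, which oxidizes isovaleryl-CoA, read 11.68, 11.49 and 11.49 in WT against 11.55, 11.66 and 11.23 in *Cmah*-null cochleae (ILMN_2728379, band 2qE5). The arrays of both genotypes overlapped, with a difference of -0.07 (SE 0.14, adjusted p 0.902 in limma). *Bcat1*, the cytosolic aminotransferase, read 11.13, 10.34 and 10.49 in WT against 11.02 to 11.04 in *Cmah*-null cochleae, a difference of 0.38 (SE 0.21, adjusted p 0.668 in limma). As with *Bcat2*, its highest WT array was replicate 1.

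The 2 bead sets did not overlap in signal for 3 of the 13 probes or 23.1%, close to the 5404 probes or 21.0% of the whole array. The 3 arrays with fewer beads were all above the 3 with more beads for *Bcat2* (by 1.18 in the mean) and for *Ivd* (by 0.23), and all below them for *Mccc1* (by -1.03). Within the set with fewer beads the *Cmah*-null arrays differed from WT by -0.03 in *Bcat2* and -0.11 in *Mccc1*, and within the other set by 0.48 and -0.59. With the array set as a block in limma, the difference of *Bcat2* was 0.22 (SE 0.20, adjusted p 0.628, which ran from 0.452 to 0.96 over its alternatives) in place of 0.59, and that of *Mccc1* was -0.35 (SE 0.17, adjusted p 0.38, over its alternatives 0.371 to 0.96) in place of -0.65.

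For the 6 probes whose groups did not overlap, every *Cmah*-null array lay below every WT array. Their differences within both sets of arrays therefore had to be below 0, and only their size could vary. In the set with fewer beads and in the set with more, the differences were -1.03 and -1.18 for the brightest *Dbt* probe, -1.72 and -1.25 for the junction probe of *Pcca*, -1.06 and -1.69 for its brighter probe, and -0.92 and -0.63 for *Pccb* ILMN_2622761. With the array set as a block these differences were -1.10 (SE 0.11), -1.48 (SE 0.20), -1.38 (SE 0.18) and -0.78 (SE 0.10), and the brighter *Pcca* probe was then also past the rule. In the same order the differences were -0.89 and -0.26 for *Bckdha*, and -0.59 and -0.16 for *Pccb* ILMN_2875938. The sets hold 1 or 2 arrays of a genotype, so the values within a set have no error of their own. The block fit draws its SE partly from *Cmah*-null replicates 1 and 2, the closest pair, whose spread may be technical.

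**Figure D2:**
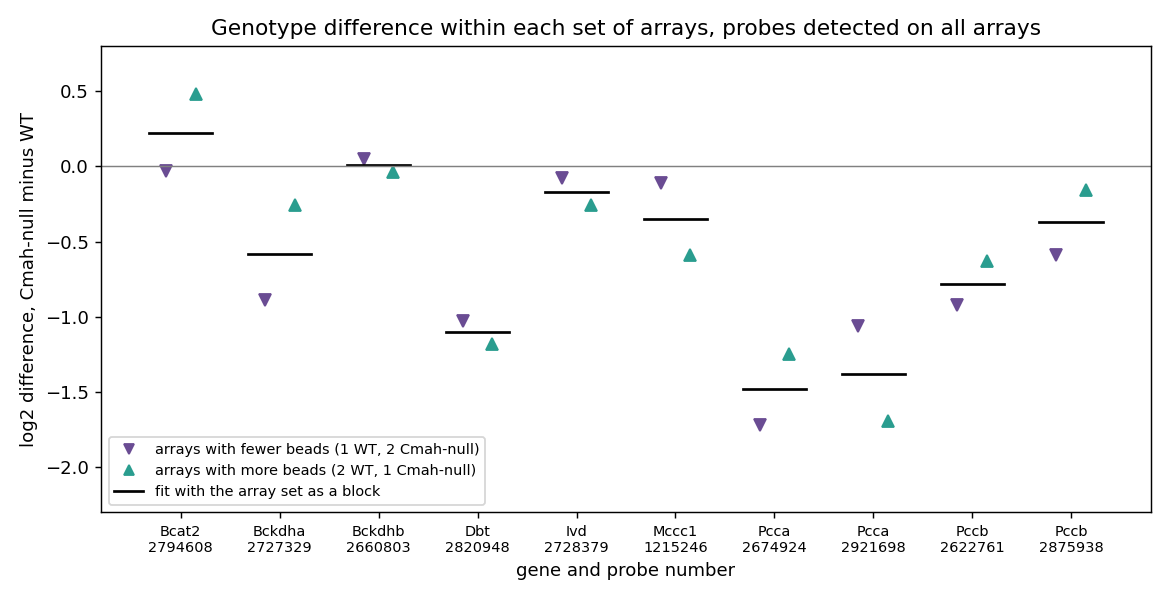
Log2 difference between *Cmah*-null and WT within the arrays with fewer beads (purple) and more beads (green) and in the fit with the set as a block (black line), for the 10 probes detected on all arrays, named by gene and probe number. *Dbt*, *Pcca* and *Pccb* lie below 0 in both sets, which was fixed by their groups not overlapping, and *Bcat2* and *Bckdhb* lie on either side of 0.

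Over the 13 probes, 3 or 23.1% were lower by the rule and 0 were higher, where 1.41% of all probes were lower and 1.3% were higher by that rule. The 3 were the probes named above for *Dbt*, *Pcca* and *Pccb*. Of the 13 probes 10 were detected on all arrays, against 12410 of the 25697, so the shares over all probes include many near background. The groups did not overlap for 6 probes or 46.2%, all lower in *Cmah*-null mice, where 7.33% of all probes were lower and 9.11% higher without overlap. An exact permutation test over 3 against 3 arrays cannot give a two-sided p below 0.1, so no such probe can reach 0.05 by it. An unadjusted p under 0.05 in limma was found for 5 of the 13 probes and 2199 of all probes. At an adjusted p under 0.05, 0 of the 13 probes and 0% of the array were called by limma, the adjusted p of the 13 ran from 0.47 to 0.997, and the smallest on the array was 0.25. The 9 genes by their brightest probe had a median difference of -0.39, against 0.01 for all 18138 symbols. The 8 detected ones had a median of -0.45, against 0.04 for the 10881 detected symbols. With median scaling the 9 genes had a median of -0.03, and 5 of the 9 were below 0, beside the shift of 0.30 given above.

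The rest of the pathway, taken as 26 further genes of transport, regulation, later steps and cofactors, had 23 matched by symbol. Of these, 20 were detected on all arrays of a genotype, as were 10881 of all 18138 symbols. Taken by their brightest probes, 17 were below 0 and 6 above, with a median of -0.15, and 4 passed the rule, all lower, where 1.46% of all symbols were lower and 1.61% higher. The 4 were 2 without WT replicate 2, without *Cmah*-null replicate 2 and without *Cmah*-null replicate 3. *Dld* is one of the 4. The others act in the middle of the isoleucine and valine branches. *Acadsb*, which oxidizes the branched acyl-CoA made from isoleucine, read 10.96, 11.88 and 12.12 in WT against 10.84, 10.74 and 10.59 in *Cmah*-null cochleae (-0.93, SE 0.30, adjusted p 0.538 in limma). *Aldh6a1*, which makes propionyl-CoA from the valine intermediate, read 11.35, 11.91 and 12.33 against 11.16, 10.98 and 10.96 (-0.83, SE 0.25, adjusted p 0.506 in limma). The hydratase *Echs1* read 12.80, 12.12 and 12.22 against 11.90, 11.86 and 10.89 (-0.83, SE 0.33, adjusted p 0.58 in limma). Within the sets with fewer and with more beads, *Acadsb* was at -0.17 and -1.41, and *Aldh6a1* at -0.28 and -1.16. In the same order *Echs1* was at -0.92 and -1.28, and *Dld* at -0.59 and -1.24.

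In each of these 4 genes no array of one genotype overlapped the other, so their sign within both bead sets was fixed. The groups did not overlap either, with a smaller difference, for *Auh*, *Hsd17b10*, *Acad8* and *Mcee*. These were 8 of the 23 genes, all lower, where 1210 of all 18138 symbols were lower and 1815 higher without overlap. *Acad8*, which oxidizes the acyl-CoA made from valine, was at -0.54 (SE 0.14) and detected on 5 of the 6 arrays. *Auh*, the hydratase of the leucine branch, was detected on the 3 WT arrays and no *Cmah*-null array, at -0.15 (SE 0.07), close to background. *Hlcs* and *Btd*, which attach biotin to both carboxylases and free it again, were at 0.09 (SE 0.08) and -0.09 (SE 0.13). The leucine branch held no gene past the rule by its brightest probe, though *Mccc2* was not measured and *Mccc1* passed without WT replicate 1. *Acadsb* and *Aldh6a1*, past the rule by that probe, lie on the way of isoleucine and valine to succinyl-CoA. *Pcca* and *Pccb* lie there too, but in the deposited values passed only by their less bright probe. *Echs1*, also past the rule, serves that way and fatty acid oxidation. Whether the branches differ was not tested. *Mmaa* and *Hibch* were detected on 0 arrays, *Acat1* on 1 WT array, and *Mmachc*, *Mmadhc* and *Slc7a5* were not matched by symbol.

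**Figure D3:**
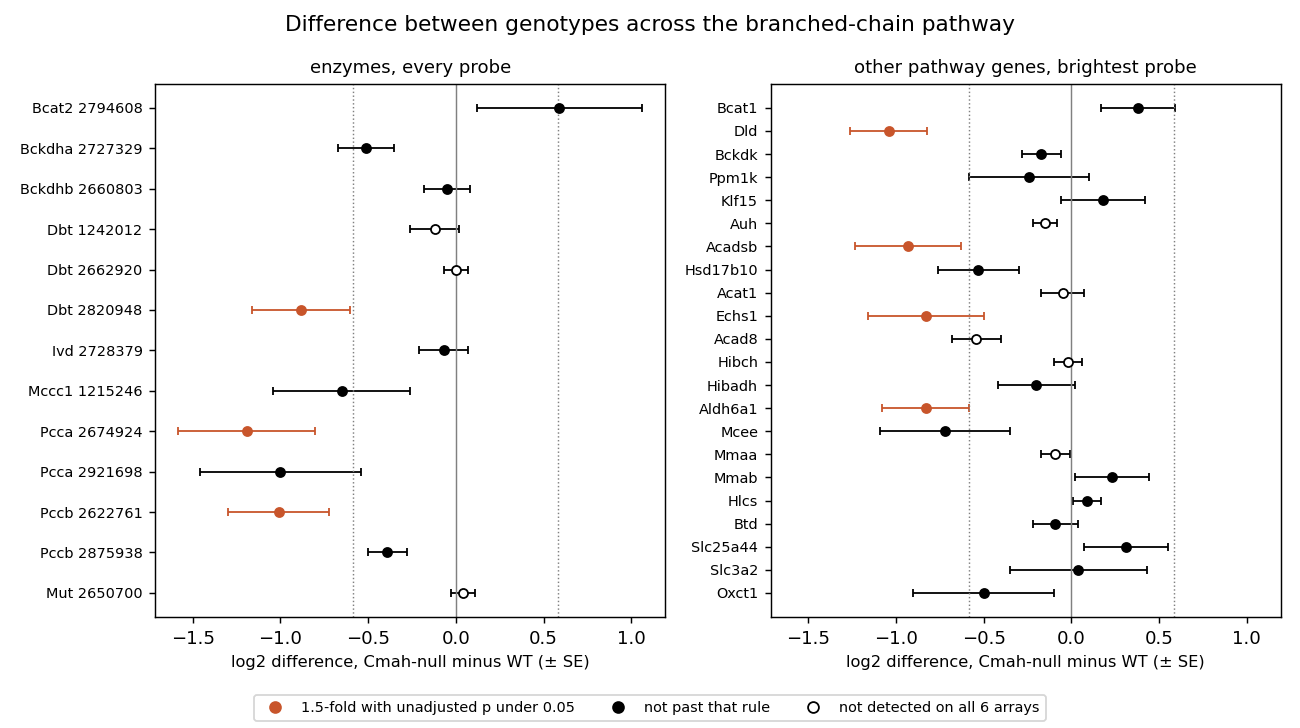
Log2 difference (*Cmah*-null minus WT, ± SE from limma) of the 13 probes for branched-chain enzymes (left) and of 22 of the 23 other genes of the pathway by their brightest probe (right), with dotted lines at 1.5-fold. Orange marks those past 1.5-fold with an unadjusted p under 0.05, which are 3 on the left and 4 on the right and all lower, and open circles those not detected on all 6 arrays.

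The arrays were also compared by a median over the enzymes. The median over the 9 genes of the signal, each gene centred on its mean over the 6 arrays, was 0.30, 0.13 and 0.09 in WT against -0.18, -0.14 and -0.18 in *Cmah*-null cochleae. By this centred median all WT arrays were above all *Cmah*-null arrays. Without centring the medians overlapped, at 11.06, 10.34 and 10.18 in WT against 10.57, 10.42 and 10.39. The enzymes did not all move together, with r over the 6 arrays from -0.96 (*Bcat2* and *Mccc1*) to 0.96 (*Dbt* and *Pcca*). The 9899 other symbols detected on all arrays were ranked by Pearson r with the centred median over the 6 arrays, with no test. Of the 5 that followed it most closely, 4 were *Etfdh* (r = 0.998), *Gramd1b* (0.984), *Amd2* (0.982) and *Etfa* (0.982). *Etfdh* and *Etfa* belong to the electron transfer flavoprotein system, which takes up electrons from *Ivd*, *Acadsb* and *Acad8*. *Etfdh* read 11.56, 11.00 and 10.96 in WT against 10.08, 10.13 and 10.08 in *Cmah*-null cochleae, and *Etfa* read 14.65, 14.04 and 14.07 against 13.55, 13.63 and 13.57.

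Other mitochondrial lists and tissue markers moved on the same arrays. The differences of 15 citrate cycle genes were all below 0, with a median of -0.48 and 4 past the rule, and those of 16 genes of fatty acid oxidation were all below 0, with a median of -0.87 and 12 past the rule. With median scaling the citrate cycle was at -0.06 with 8 of 15 genes below 0, and fatty acid oxidation at -0.41 with 15 of 16 below 0. The enzymes of branched-chain breakdown, at -0.39 with 1 of 9 genes past the rule by the brightest probe, were not set apart from these lists by any test. These lists were compared on the same arrays, and the list of fatty acid oxidation shares *Etfdh* and *Etfa* with the ranking above.

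Brown fat markers were lower too. *Ucp1*, the uncoupling protein that defines brown fat, read 13.63, 12.48 and 11.79 in WT against 10.82, 10.84 and 9.90 in *Cmah*-null cochleae (-2.11, SE 0.52, adjusted p 0.433 in limma). The summed linear signal of the 10 brown fat markers was 51600 to 84000 units in WT and 22600 to 35000 units in *Cmah*-null cochleae, without overlap, and their median difference of -0.68 was -0.48 with median scaling. Past the rule were 5 of the 10, all lower, among them *Ucp1*, *Cox8b* (-1.44) and *Cox7a1* (-1.54), and the latter pair is also made in muscle. *Zic1*, also a gene of other tissues, was at 0.36 and higher in *Cmah*-null cochleae without overlap, and *Dio2* and *Prdm16* were detected on 0 arrays. The summed signal is weighted toward the brightest markers, which were *Cox8b*, *Cox7a1* and *Zic1*. In whole tissue, fewer cells of a type and less RNA per cell cannot be told apart. The part of brown fat in the values of *Dbt*, *Pcca* and *Pccb* was not tested.

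White fat and skeletal muscle markers overlapped between the genotypes in their sums. The 8 white fat markers summed to 27900 to 59400 units in WT and 18300 to 52200 units in *Cmah*-null cochleae, with 2 past the rule, both lower, and a median of -0.58 that was -0.34 with median scaling. The brightest were *Cfd* (0.26), *Adipoq* (-1.20) and *Cidec* (-0.77), of which *Adipoq* read 12.69 to 13.75 in WT against 12.93, 12.87 and 10.24 in *Cmah*-null cochleae. The 13 muscle markers summed to 304000 to 511000 units in WT and 336000 to 354000 units in *Cmah*-null cochleae, with 0 past the rule, but 12 of the 13 were below 0, with a median of -0.51 that was -0.07 with median scaling. *Myl1* (0.06), *Atp2a1* (-0.14) and *Acta1* (-0.14) were the brightest, all near the top of the scale, and further down *Mylpf* was at -1.65 (SE 0.92). The cochlear markers *Gjb6* (0.19), *Gjb2* (0.57) and *Coch* (-0.64) were detected on all arrays, 0 of 13 passed the rule, their sums overlapped at 13500 to 28300 units in WT and 22600 to 23400 units in *Cmah*-null cochleae, and *Slc26a5*, the motor protein of outer hair cells, was detected on 0 arrays with *Otor* and *Tectb*. Of the brightest blood and marrow markers, *Hba-a1* and *Ltf* read 15.92 to 16.04 on all arrays, the top of the scale, where a difference cannot be read, and *S100a9* was at -0.03. *Hbb-b1* read 12.87, 13.53 and 13.51 in WT against 12.68, 12.78 and 11.43 in *Cmah*-null cochleae, without overlap (-1.0, SE 0.41, adjusted p 0.584 in limma). The blood and marrow markers and the bone markers (*Bglap2*, *Col1a1* and *Bglap1*, at -0.78, -0.33 and -1.16) had 0 genes past the rule. Their sums were 160000 to 198000 units in WT and 156000 to 172000 units in *Cmah*-null cochleae for blood and marrow, and 25800 to 112000 and 39100 to 41200 units for bone. The part of these tissues in the enzymes' values was not tested.

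**Figure D4:**
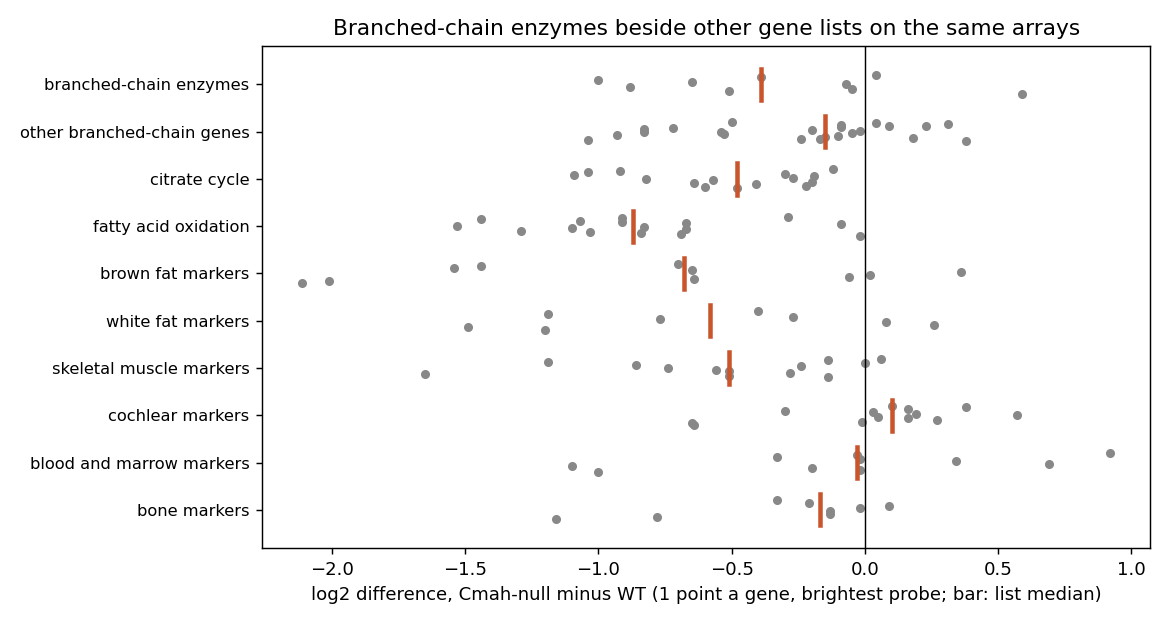
Log2 difference (*Cmah*-null minus WT) of each gene by its brightest probe, 1 grey point a gene, for the branched-chain enzymes, the rest of the pathway, 2 other mitochondrial lists and 6 marker lists, with the list median as an orange bar. The medians run from -0.87 for fatty acid oxidation to 0.10 for cochlear markers, with the branched-chain enzymes at -0.39.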

How the data were processed

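The raw table deposited by the authors held linear bead intensity, not background-subtracted, beside bead numbers and a detection p value for every probe. Their second deposited table held log2 values, which equal quantile-normalized log2 raw signals to within 5e-07. Columns of the second group are named "old" and were matched to *Cmah*-null by elimination and replicate number. Its columns of fold change and LPE statistics hold the authors' own comparison and were not used, and 18 per-sample columns were not used either. Probe coordinates have no stated build, so bands are given.

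The log2 values were fitted by lmFit and eBayes of limma 3.58.1 (R 4.3.3), two-sided and with no covariate. P-values were adjusted by Benjamini-Hochberg over the 25697 probes. The fit was tested on simulated data. Calls use 1.5-fold with an unadjusted p under 0.05, the thresholds stated in the study's results. The p here is that of limma and not of the authors' own comparison, so the calls can differ from theirs. A gene stands by its brightest probe, the one with the highest mean. The members and gene lists were chosen with earlier results of these data known. Named genes are the 10 enzymes, and by rule the regulators, *Bcat1*, *Dld* and every called gene of the rest of the pathway, the 3 brightest and the defining genes of each marker list, and the 5 genes closest in profile. Other genes were named after their values were seen, and 2 genes that these rules and lists take in are not reported here. Replicate numbers did not pair the samples (correlations of same-numbered deviations 0.022, -0.17 and 0.013). Alternatives were neqc (offset 16), median scaling, quantile normalization of the raw signal, only probes detected on 3 or more arrays, and a replicate or bead block. Further ones were each array left out, a trend and robust prior, an ordinary test per probe, averaging *Cmah*-null replicates 1 and 2, and, for genes, the mean of all probes. The number of arrays limits the precision. Python 3.11.15 and matplotlib 3.10.9 drew the figures.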

Additional observations from a re-analysis of the deposited data

How the results depend on the processing

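The number of enzyme probes past 1.5-fold with an unadjusted p under 0.05, 3 in the deposited values, was 1 with median scaling and 1 with an ordinary test per probe, *Pccb* ILMN_2622761 both times, and 2 to 4 on leaving out 1 array. The number whose groups did not overlap, 6, was 1 with median scaling and 6 to 8 on leaving out 1 array. Leaving out an array cannot make separate groups overlap, so that count could only stay or rise. The median difference of the enzymes was -0.03 with median scaling and -0.48 to -0.33 on leaving out 1 array. That scaling moved the median of the probes detected on all arrays to 0.30, and the cause was not tested. It turned *Bckdhb* to 0.40, *Ivd* to 0.41 and *Pccb* by its brighter probe to 0.09. *Bckdhb* was also 0.01 with the bead block and ran from -0.12 to 0.07 on leaving out 1 array, and *Ivd* from -0.16 to 0.05. The junction probe of *Pcca* was past the rule except with median scaling, with the ordinary test, and without *Cmah*-null replicate 1 or 3. *Dbt* was -0.50 with median scaling, where it was not past the rule. No enzyme probe reached an adjusted p of 0.05 in any alternative, and the smallest was 0.0896, for *Dbt* with the bead block, whose adjusted p in limma reached 0.96 in other alternatives.

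For the rest of the pathway, the median of -0.15 was -0.19 with neqc, -0.01 with median scaling, -0.19 with the detection filter, -0.20 with the mean of all probes, and -0.18 to -0.11 on leaving out 1 array. Its 4 calls became 2 with median scaling, 2 with the ordinary test, 8 with the bead block, and 2 to 5 on leaving out 1 array, with 2 where this was WT replicate 2 or either of *Cmah*-null replicates 2 and 3. With the replicate block, 4 enzyme probes and 5 other pathway genes were past the rule, and the brighter *Pcca* probe (-1.0) was the enzyme probe gained.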
